A study of Homo sapiens with 16 samples.

Results

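The genes described here are the ADAM and ADAMTS metalloproteinases, the ADAMTS-like proteins and the tissue inhibitors of metalloproteinases (TIMPs), chosen by gene symbol. Of 57500 genes in the count table, 50 carried such a symbol, and 39 of them had at least 10 counts summed over 16 libraries. These 39 were 15 of 22 ADAM genes, 15 of 19 ADAMTS genes, 5 of 5 ADAMTSL genes and 4 of 4 TIMP genes. The rule used symbols and total counts only, not any difference between groups, but it was set with earlier results of these data known. The libraries came from MDA-MB-231, an established human breast cancer line that lacks hormone receptors, and every group carried a short hairpin RNA switched on by doxycycline. The groups, of 4 libraries each, were a scrambled hairpin (shScramble) without doxycycline, shScramble with doxycycline, a hairpin against AKAP2 (shAKAP2) without doxycycline, and shAKAP2 with doxycycline. AKAP2 encodes a scaffold protein that anchors protein kinase A. The hairpin sequence, the doxycycline dose and time, and whether a line is 1 clone were not given by the sources at hand, and 1 hairpin per line was labelled.

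ADAM proteins are membrane-anchored enzymes that cut other surface proteins near the membrane, a step called shedding that releases growth factors, cytokines and receptor ectodomains. ADAMTS proteins are secreted, bind the matrix through thrombospondin repeats, and cut proteoglycans, procollagens and other matrix proteins, whereas ADAMTSL proteins have the matrix-binding repeats without the protease domain. TIMPs are small secreted inhibitors of matrix metalloproteinases (MMPs), and TIMP3, which binds to the matrix, also inhibits several ADAM and ADAMTS enzymes, including ADAM10 and ADAM17.

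Total counts ranged from 24482997 to 37472525 per library. AKAP2 had 144, 212 and 168 counts over the libraries of the shScramble groups without and with doxycycline and of shAKAP2 without doxycycline, and 4 counts over shAKAP2 with doxycycline. Its log2 fold change with doxycycline in the shAKAP2 line was -5.06 (SE 0.58, adjusted p = 1.26e-06). The replicates numbered 1 of both shScramble groups stood apart from their groups: the SD of their log2 deviation over genes was 0.42 and 0.46, against 0.29 to 0.35 in the other libraries. The share of counts from mitochondrial genes was 2.41 to 3.62% and 2.20 to 3.02% in shScramble without and with doxycycline. It was 1.86 to 2.38% and 1.02 to 2.04% in shAKAP2, and its part in the results was not tested. Among markers of the line, VIM, CD44, KRT8, KRT18 and ZEB1 were detected in every group. With doxycycline in shAKAP2, ZEB1 fell (log2 -0.56, adjusted p = 9.44e-07), VIM fell (-0.18, adjusted p = 0.034) and KRT8 rose (0.40, adjusted p = 0.000815), and their part in the results was not tested. By contrast, the estrogen receptor gene ESR1 had at most 1 count in a group. Yet the 9 luminal breast genes, ESR1 among them, summed to 245 to 380 and 270 to 428 CPM in shScramble without and with doxycycline. In shAKAP2 the sum was 251 to 268 and 299 to 326 CPM. Of 5 tested, EPCAM alone was called with doxycycline in shAKAP2 (0.345, adjusted p = 0.0466, 20% higher against 13.1% of all genes). Between the treated lines, 1 was called higher and 2 lower in shAKAP2 (18.7% and 21.5% of all genes were).

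The longest annotated 3′ untranslated region (UTR) of some members holds the 7-letter word GAACACA, which earlier work on these data found often among genes that fell with doxycycline in the shAKAP2 line. Windows of 30 bases around it are shown for some members because 3 of the 8 members that fell hold it. They were read on the transcript's strand from GENCODE release 29 (GRCh38), with the word in capitals.
ADAM10, base 751 of the UTR: actatactgaaGAACACAgttaagtgttgt
ADAM10, base 3991: accagcagtggGAACACAacagaatggtgt
ADAM10, base 6752: gtggttatactGAACACAttaagcaatttt
ADAMTS14, base 537: tggagggggtgGAACACAaggtgatcgcag
TIMP2, base 2576: tccggtgctggGAACACAcaagagttgttg
ADAM23, base 549: agatgacagatGAACACAaagaagctgcct
The UTRs are 8740 bases long in ADAM10, 1588 in ADAMTS14, 2690 in TIMP2 and 3503 in ADAM23. Over all tested genes with an annotated 3′ UTR, 32.4% of 2170 genes called lower with doxycycline in the shAKAP2 line held the word, searched on the transcript's strand only. The share was 6.36% of 1917 genes called higher, 11.6% of 8775 not called and 14.3% of all 12862. Among the 28 tested members, the word was in 3 of 8 called lower (ADAM10, ADAMTS12, ADAMTS14), 1 of 5 called higher (TIMP2) and 0 of 15 not called. ADAM23, with 36 counts in all, did not pass the filter on low counts. TIMP1, TIMP3 and TIMP4 hold no copy in their longest annotated 3′ UTR. A match is a description of the sequence, and longer UTRs hold any word more often.

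The 3 most abundant TIMP transcripts were also the most abundant members in shScramble without doxycycline. Per length and depth (RPKM, counts per kilobase of exon, scaled to library size), TIMP1 was at 172 ± 18.1 there, TIMP2 at 143 ± 21.5 and TIMP3 at 114 ± 35.0 (SD, n = 4). TIMP1 lay above TIMP2, and TIMP2 above TIMP3, in each of these 4 libraries. The most abundant protease was ADAM9 at 52.7 ± 7.07 RPKM, followed by ADAM10 at 25.9 ± 3.81, ADAMTS15 at 16.6 ± 1.90, ADAM8 at 13.5 ± 3.34, and ADAM15 and ADAMTS12 at 11.8 each. In shAKAP2 with doxycycline the order of the first 4 was TIMP2 (173 ± 8.64 RPKM), TIMP1 (134 ± 5.11), ADAM9 (68.3 ± 1.06) and TIMP3 (28.2 ± 3.03). The order of different genes was not tested.

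TIMP3 fell with doxycycline in the shAKAP2 line, as did TIMP4 and, by a small amount, TIMP1, whereas TIMP2 rose. TIMP3 stood at 761, 501, 405 and 442 CPM (counts scaled to library size) in shScramble without doxycycline and at 736, 577, 503 and 600 with it. In shAKAP2 it stood at 264, 267, 261 and 316 CPM without doxycycline and at 118, 127, 124 and 150 with it. All 4 shAKAP2 libraries with doxycycline lay below all others, and the shAKAP2 libraries without doxycycline lay below all shScramble libraries. The log2 fold change of TIMP3 with doxycycline was -1.10 in shAKAP2 (SE 0.17, adjusted p = 0.000136) and 0.20 in shScramble (SE 0.16, adjusted p = 0.82), and the difference between these effects was -1.29 (SE 0.23, adjusted p = 0.00119). Between the lines, TIMP3 was already lower in shAKAP2 without doxycycline, by a log2 fold change of -0.93 (SE 0.17, adjusted p = 0.00166), and with doxycycline by -2.22 (SE 0.17, adjusted p = 6.76e-08).

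TIMP4, a low-abundance inhibitor with tissue-restricted expression, stood at 2.69, 3.21, 4.11 and 4.10 CPM in shScramble without doxycycline and at 3.98, 4.79, 2.66 and 3.99 CPM with it. In shAKAP2 it stood at 2.82, 2.23, 3.73 and 3.25 CPM without doxycycline, and at 1.32, 1.10, 0.940 and 1.06 CPM with it. The last 4 libraries lay below the other 12. Its log2 fold change was -1.44 with doxycycline in shAKAP2 (SE 0.24, adjusted p = 9.91e-05), and the difference from the shScramble effect was -1.58 (SE 0.32, adjusted p = 0.00157).

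TIMP1, which inhibits most secreted MMPs, stood at 301, 270, 250 and 237 CPM in shScramble without doxycycline and at 349, 299, 292 and 289 with it. In shAKAP2 it stood at 247, 237, 240 and 237 CPM without doxycycline and at 204, 203, 219 and 203 with it. The 2 shAKAP2 groups did not overlap, and neither did the lines with doxycycline. The effect of doxycycline in shAKAP2 was -0.21 on the log2 scale (SE 0.07, adjusted p = 0.0353), the effect in shScramble was 0.21 (SE 0.07, adjusted p = 0.25), and their difference was -0.43 (SE 0.10, adjusted p = 0.00666). The call in shAKAP2 was lost when any 1 of its libraries other than replicate 3 with doxycycline was left out, with adjusted p up to 0.0864, whereas the call on the difference was kept in all 22 alternatives fitted. The shScramble effect passed the test without replicate 1 of the untreated group (0.28, adjusted p = 0.0238) and without both libraries numbered 1 (0.22, adjusted p = 0.00792).

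TIMP2, which inhibits MMPs and with MMP14 takes part in activating pro-MMP2 at the cell surface, stood at 961, 846, 713 and 706 CPM in shScramble without doxycycline and at 906, 912, 891 and 1011 with it. In shAKAP2 it stood at 820, 789, 754 and 804 CPM without doxycycline and at 1046, 961, 949 and 940 with it. The shAKAP2 groups did not overlap, whereas the shScramble groups did. TIMP2 was called higher with doxycycline in shAKAP2 (log2 0.30, SE 0.08, adjusted p = 0.00848), but the difference from the shScramble effect was 0.09 (SE 0.11, adjusted p = 0.65), so no difference between the lines was shown. The shScramble effect, 0.21 (SE 0.08, adjusted p = 0.38), passed the test without replicate 1 of the untreated group (0.30, adjusted p = 0.0164) and without both libraries numbered 1 (0.32, adjusted p = 0.000951).

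**Figure D1:**
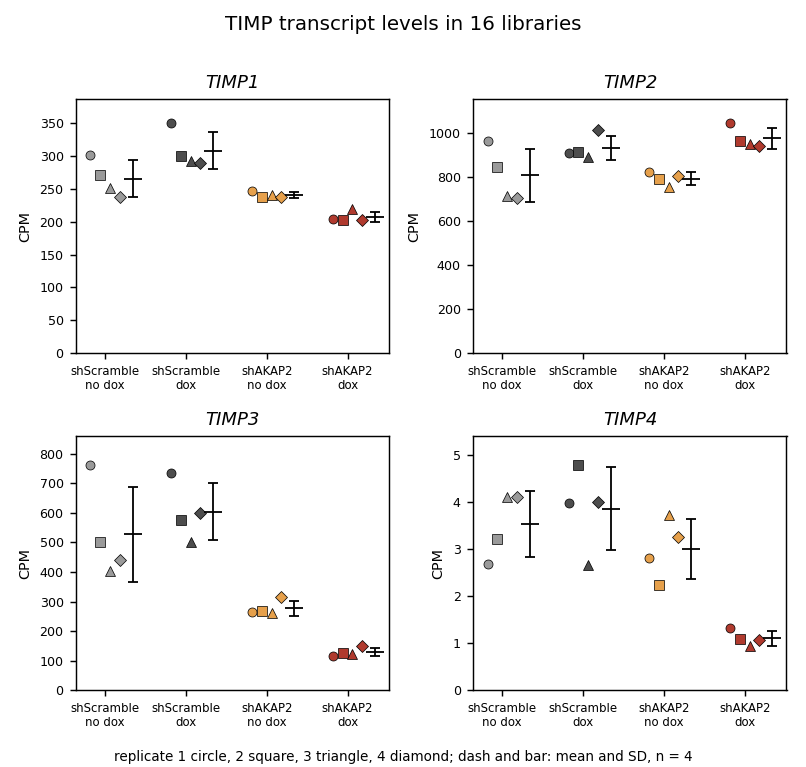
Levels of TIMP1 to TIMP4 in CPM (vertical axes from 0) in the 16 libraries, by group; each symbol is 1 library, and the dash and bar are the mean and SD of 4. TIMP3 and TIMP4 in the shAKAP2 libraries with doxycycline lie below all 12 other libraries, and TIMP2 lies between 940 and 1046 CPM there.

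The make-up of the TIMP transcripts differed between the groups. Of the summed TIMP RPKM, TIMP3 made up 26.1 ± 3.40% and 26.2 ± 2.17% in shScramble without and with doxycycline, 16.8 ± 1.31% in shAKAP2 without it and 8.39 ± 1.02% in shAKAP2 with it (SD, n = 4). TIMP2 made up 33.2 ± 0.99% and 33.3 ± 2.85% in shScramble, 39.2 ± 0.71% in untreated shAKAP2 and 51.4 ± 1.81% in treated shAKAP2. TIMP1 made up 40.0 to 43.5% on average in every group, and TIMP4 at most 0.52% on average. The summed level was 431 ± 72.8 and 498 ± 38.1 RPKM in shScramble, and 358 ± 9.08 and 336 ± 6.47 RPKM in shAKAP2, without and with doxycycline.

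**Figure D2:**
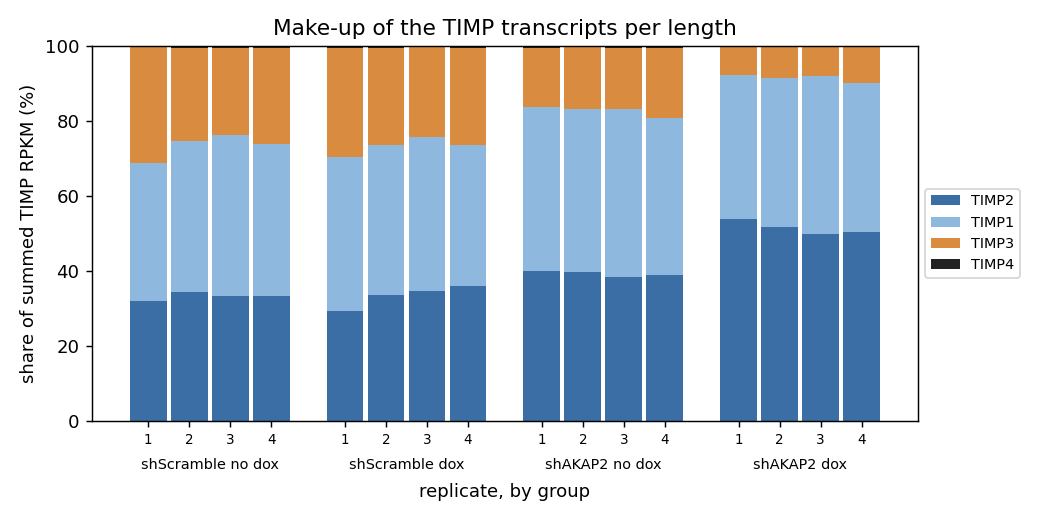
Share of the summed TIMP RPKM (percent, 0 to 100) taken by each TIMP in each library, by group and replicate. The TIMP3 share is 7.42 to 9.80% in shAKAP2 with doxycycline against 15.7 to 18.7% without it, and the TIMP4 share is too small to see.

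With doxycycline in the shAKAP2 line, 5 of 28 tested members were called higher and 8 lower. A gene was called at an adjusted p under 0.05 over all genes tested, and in this comparison 13.1% of 15566 genes were called higher and 15.2% lower, so that the share of members called lower (28.6%) lay above the share of all genes and the share called higher (17.9%) near it. Called higher were ADAM9, ADAM17, ADAMTS6, ADAMTSL1 and TIMP2. Called lower were ADAM10, ADAMTS12, ADAMTS14, ADAMTS15, ADAMTSL2, TIMP1, TIMP3 and TIMP4. The median log2 fold change of the 28 was -0.13, against 0.00 for all genes. Without untreated shAKAP2 replicate 4, or treated replicate 2 or 4, 5 members were called lower. Over all genes, 2001 to 2076 were called lower in these fits, against 2373 with all libraries. Members differed among themselves, from -2.84 in ADAMTS14 to 1.35 in ADAM28, which did not pass the test.

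In the shScramble line, 0 of 28 members were called in either direction, against 0.559% of all genes called higher and 0.52% lower. An unadjusted p under 0.05 was found for 6 of the 28 members and for 1456 of all 15566 genes. DESeq2 called 2 members higher and limma-voom called 0. Without both libraries numbered 1, edgeR called 8 members higher, and without replicate 1 of the untreated group alone 5. The count over all genes moved as well, from 87 called higher to 590 and 240 in these fits and to 168 under DESeq2. Those 8 were ADAM15, ADAM19, ADAMTS9, ADAMTS12, ADAMTS15, ADAMTSL4, TIMP1 and TIMP2, with log2 fold changes of 0.22 to 0.90. The median of the 28 was 0.20, against 0.00 for all genes.

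The difference between the effects of doxycycline in both lines, the interaction term, was called higher in 3 members and lower in 8, against 7.53% and 10.5% of all genes. It was higher for ADAM17, ADAMTS6 and ADAMTSL1, and lower for ADAM10, ADAM15, ADAMTS12, ADAMTS15, ADAMTSL4, TIMP1, TIMP3 and TIMP4. The calls for ADAM10, ADAMTS12, TIMP1, TIMP3 and TIMP4 were kept in all 22 alternatives. For ADAM17 the call was lost without shScramble replicate 2, 3 or 4 with doxycycline or shAKAP2 replicate 1 or 2 without it (adjusted p up to 0.0588). The call for ADAMTS6 was lost without untreated shScramble replicate 3 or 4 or untreated shAKAP2 replicate 1 or 4 (up to 0.0605). ADAMTSL1 lost its call without untreated replicate 3 of either line (up to 0.0529), ADAMTSL4 without untreated shAKAP2 replicate 1 (0.0608), and ADAMTS15 without untreated shScramble replicate 3 or 4, untreated shAKAP2 replicate 1 or treated shAKAP2 replicate 3 (up to 0.0582). Without untreated shAKAP2 replicate 1, 1 member was called higher and 5 lower, and without untreated shScramble replicate 3, 1 was called higher. Over all genes, 912 were called higher and 1412 lower in the first fit, and 951 higher in the second. With all libraries these counts were 1172 and 1630.

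**Figure D3:**
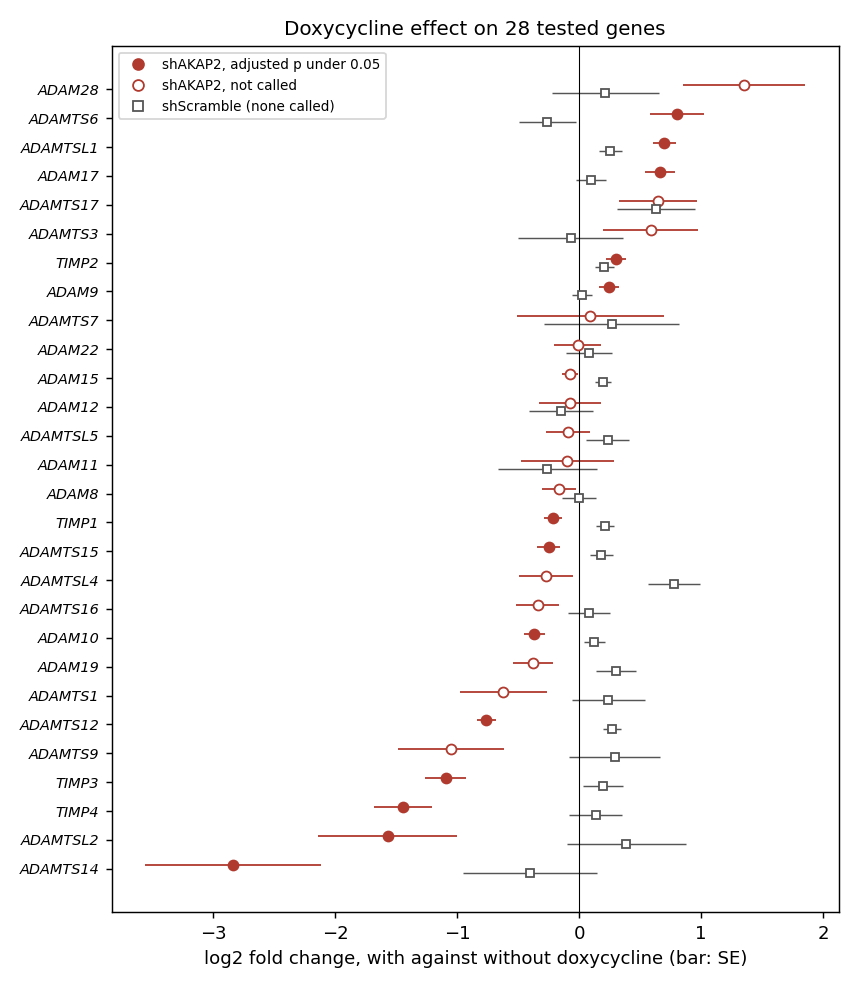
Log2 fold change with against without doxycycline (horizontal axis, bars are SE) of the 28 tested members, ordered by the effect in the shAKAP2 line (circles, filled where called) with the shScramble line beside it (squares, 0 called). ADAMTS14, ADAMTSL2, TIMP4 and TIMP3 have the lowest shAKAP2 values among the called members, from -2.84 to -1.10.

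ADAM10 and ADAM17, the best known sheddases, moved in opposite directions with doxycycline in the shAKAP2 line. ADAM17, also called TACE, releases TNF and several EGF receptor ligands. It stood at 72.4, 51.4, 52.0 and 52.0 CPM in shScramble without doxycycline and at 79.9, 55.1, 56.5 and 52.9 with it. In the shAKAP2 line the values were 50.4, 53.6, 59.8 and 57.1 CPM without doxycycline and at 86.1, 88.6, 89.4 and 86.1 with it. The last 4 libraries lay above all others, and the replicates numbered 1 were the highest of both shScramble groups. With doxycycline ADAM17 changed by 0.66 on the log2 scale in shAKAP2 (SE 0.12, adjusted p = 0.000329) and by 0.10 in shScramble (SE 0.12, adjusted p = 0.90), with a difference of 0.57 (SE 0.17, adjusted p = 0.0264). Of its exonic bases, 13.6% overlap genes on the other strand, mainly IAH1, which had mean levels of 57.0, 49.2, 44.4 and 41.5 CPM in the 4 groups in the order above, lowest where ADAM17 was highest.

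ADAM10, which cuts Notch receptors, CDH2 and other surface proteins, stood at 507, 416, 372 and 381 CPM in shScramble without doxycycline and at 509, 458, 418 and 440 with it. Its shAKAP2 libraries stood at 360, 384, 354 and 416 CPM without doxycycline and at 301, 282, 287 and 304 with it. The treated shAKAP2 libraries lay below all 12 others. ADAM10 changed with doxycycline by -0.37 on the log2 scale in shAKAP2 (SE 0.09, adjusted p = 0.00293) and by 0.12 in shScramble (SE 0.09, adjusted p = 0.75), with a difference of -0.49 (SE 0.12, adjusted p = 0.00781). The ratio of ADAM10 to ADAM17, each in RPKM, was 4.65 to 5.37 and 4.24 to 5.53 in shScramble without and with doxycycline, 3.94 to 4.84 in untreated shAKAP2, and 2.12 to 2.34 in treated shAKAP2.

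ADAM9, the most abundant protease and a sheddase with a broad range of substrates, stood at 394, 409, 385 and 410 CPM in shAKAP2 without doxycycline and at 462, 474, 474 and 479 with it. These groups did not overlap, and doxycycline changed ADAM9 by 0.24 on the log2 scale (SE 0.08, adjusted p = 0.0327). In shScramble it stood at 364 ± 48.9 and 370 ± 39.8 CPM without and with doxycycline (SD, n = 4), and the difference between the effects was 0.22 (SE 0.12, adjusted p = 0.22). The shAKAP2 call was lost without any 1 of its 4 untreated libraries or its treated replicate 2, 3 or 4 (adjusted p up to 0.0864).

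ADAM15, which carries an integrin-binding motif, stood at 77.6 ± 3.75 and 88.8 ± 6.53 CPM in shScramble and at 78.8 ± 3.41 and 74.8 ± 1.29 in shAKAP2, without and with doxycycline (SD, n = 4). Neither effect was called, while the difference between them was -0.27 (SE 0.09, adjusted p = 0.0458). That call was lost in 14 alternatives (adjusted p up to 0.1007). Among them were leaving out untreated shScramble replicate 2 or 4, treated shScramble replicate 2, 3 or 4, untreated shAKAP2 replicate 1, 2 or 4, and each treated shAKAP2 library. ADAM8, a protease of leukocytes and tumour cells, stood at 64.35 ± 15.96 and 64.3 ± 11.7 CPM in shScramble and at 48.0 ± 2.26 and 42.8 ± 2.72 in shAKAP2. It was lower in shAKAP2 with doxycycline (log2 -0.59, SE 0.14, adjusted p = 0.00224) and without it (-0.42, SE 0.14, adjusted p = 0.0391). The second call was lost without shScramble replicate 1 (-0.25, adjusted p = 0.13), without shScramble replicate 2, and without each of the 4 shAKAP2 libraries (up to 0.1015).

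ADAM28, a lymphocyte-associated protease, stood at 9.02, 4.69, 2.11 and 3.37 CPM in shScramble without doxycycline and at 10.7, 5.13, 3.05 and 3.58 with it. It stood at 0.475, 1.04, 0.685 and 1.77 CPM in shAKAP2 without doxycycline and at 2.31, 2.31, 2.82 and 2.93 with it. Without doxycycline the lines did not overlap, and the log2 fold change of shAKAP2 against shScramble was -2.25 (SE 0.49, adjusted p = 0.0057). With doxycycline it was -1.11 (SE 0.46, adjusted p = 0.0649). The shAKAP2 groups did not overlap either, with a log2 fold change of 1.35 (SE 0.50, adjusted p = 0.0545) that missed the threshold and passed it under 9 alternatives, DESeq2 among them (1.38, adjusted p = 0.0302).

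ADAM19, a neuregulin sheddase, stood at 34.02 ± 5.83 and 41.9 ± 10.5 CPM in shScramble and at 40.4 ± 5.43 and 31.0 ± 3.27 in shAKAP2, without and with doxycycline (SD, n = 4). With doxycycline it was lower in shAKAP2 (log2 -0.43, SE 0.17, adjusted p = 0.046). That call was lost in 14 of 23 alternatives, with adjusted p up to 0.13, among them without untreated shScramble replicate 2 or 4, treated shScramble or shAKAP2 replicate 2, 3 or 4, and untreated shAKAP2 replicate 1 or 3. ADAM11, which has no active protease site, was higher in shAKAP2 with doxycycline (log2 1.03, SE 0.40, adjusted p = 0.046) at mean levels under 1 CPM in every group, and that call was also lost in 14 alternatives, with adjusted p up to 0.15. Among these were leaving out untreated shScramble replicate 2 or 3, treated shScramble or shAKAP2 replicate 2, 3 or 4, and each untreated shAKAP2 library. ADAM12, a sheddase linked to HBEGF, and ADAM22, a synaptic protein without protease activity, had mean levels of 1.81 to 2.96 and 7.01 to 9.20 CPM and were not called by edgeR with all libraries. ADAM12 was called higher in shAKAP2 between the treated lines by DESeq2 (0.63, adjusted p = 0.0414) and by edgeR without untreated shScramble replicate 1 (0.63, adjusted p = 0.0489).

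**Figure D4:**
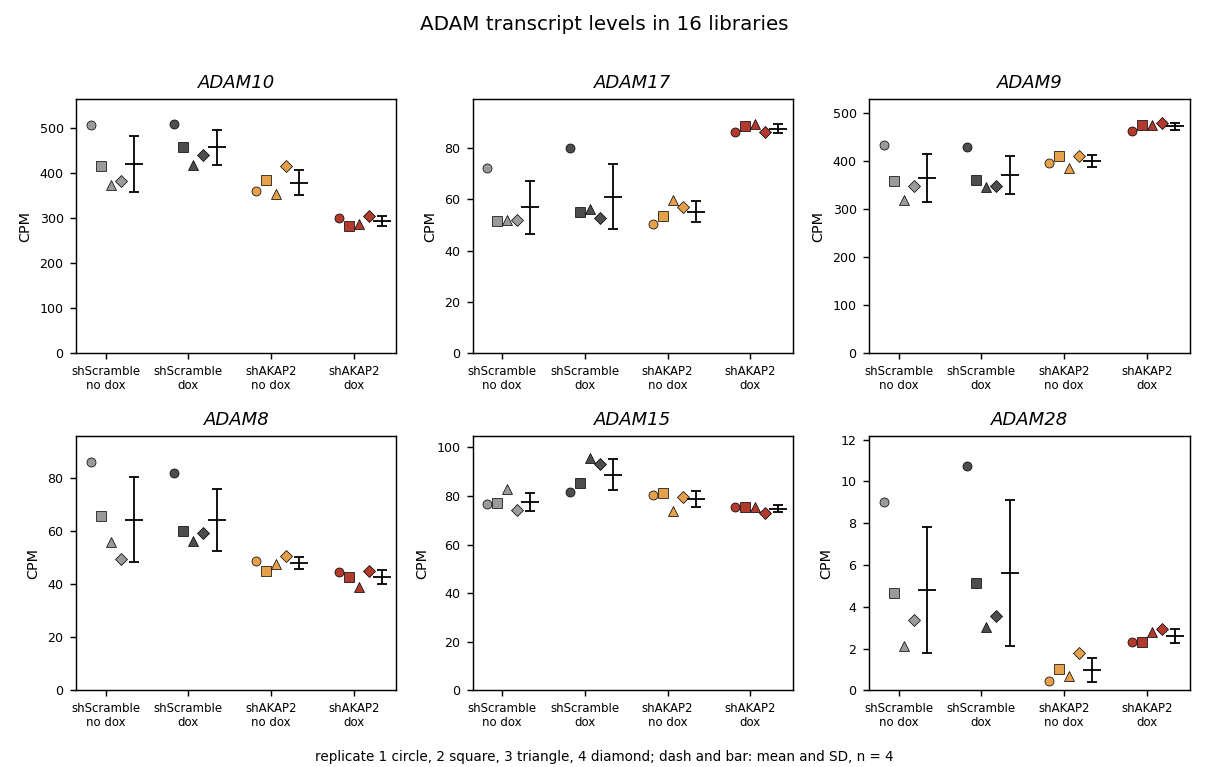
Levels of 6 ADAM genes in CPM (vertical axes from 0) in the 16 libraries, by group; each symbol is 1 library, and the dash and bar are the mean and SD of 4. ADAM17 is highest and ADAM10 lowest in the shAKAP2 libraries with doxycycline, and replicate 1 is the highest library for ADAM28 in both shScramble groups.

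Of the procollagen N-proteinases, which trim fibrillar procollagens, ADAMTS14 was lower and ADAMTS3 higher in shAKAP2 than in shScramble with doxycycline. ADAMTS14 stood at 5.40, 1.51, 1.28 and 1.28 CPM in shScramble without doxycycline and at 3.94, 1.53, 0.822 and 0.984 with it, replicate 1 being the highest in both. In shAKAP2 it had 57, 21, 30 and 39 counts without doxycycline and 1, 4, 2 and 11 counts with it, or 1.24 ± 0.49 and 0.166 ± 0.164 CPM (SD, n = 4). The shAKAP2 groups did not overlap, with a log2 fold change of -2.84 (SE 0.72, adjusted p = 0.00628), which was -3.73 without treated replicate 4, the library with 11 counts, and still called. The difference from the shScramble effect was -2.43 (SE 0.92, adjusted p = 0.0761). Without untreated shScramble replicate 1 that difference was -3.25 (adjusted p = 0.0044).

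ADAMTS3 stood at 0.832, 0.922, 1.14 and 0.220 CPM in shScramble without doxycycline and at 0.507, 0.340, 1.02 and 1.09 with it, against 1.15, 1.96, 1.67 and 2.16 CPM in shAKAP2 without it and 2.96, 3.23, 1.47 and 2.78 with it. The lines did not overlap at either condition. The log2 fold change between the lines was 1.80 with doxycycline (SE 0.41, adjusted p = 0.00161) and 1.15 without it (SE 0.41, adjusted p = 0.0579). ADAMTS2, the third enzyme of this kind, had 70 counts in all and did not pass the filter on low counts.

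ADAMTS12, which cuts cartilage oligomeric matrix protein, had the smallest p of the members in the shAKAP2 line. It stood at 133, 114, 109 and 103 CPM in shScramble without doxycycline and at 146, 137, 131 and 139 with it. The shAKAP2 libraries held 99.4, 105, 103 and 115 CPM without doxycycline and at 64.8, 58.8, 61.5 and 63.9 with it. All treated shAKAP2 libraries lay below the other 12. Doxycycline changed ADAMTS12 by -0.76 on the log2 scale in shAKAP2 (SE 0.08, adjusted p = 1.75e-07) and by 0.27 in shScramble (SE 0.07, adjusted p = 0.11), with a difference of -1.03 (SE 0.11, adjusted p = 7.44e-07). ADAMTS7, which shares this substrate, stood at 0.260 to 0.472 CPM on average and was not called by edgeR in any comparison with all libraries.

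Among the proteoglycan-cutting enzymes, ADAMTS1, ADAMTS9 and ADAMTS15 were lower in shAKAP2 than in shScramble with doxycycline. ADAMTS1 stood at 3.52, 2.91, 5.94 and 3.81 CPM in shScramble without doxycycline and at 3.24, 5.57, 4.77 and 5.47 with it. Values in shAKAP2 were 1.87, 0.422, 1.56 and 1.26 CPM without doxycycline and at 0.659, 1.10, 0.639 and 0.915 with it. Every shAKAP2 library lay below every shScramble library. The log2 fold change between the lines was -2.52 with doxycycline (SE 0.34, adjusted p = 7.19e-06) and -1.65 without it (SE 0.33, adjusted p = 0.00181). The effect of doxycycline did not pass the test in either line with all libraries. In shAKAP2 it passed in 1 of 23 alternatives (adjusted p = 0.0362).

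ADAMTS9 stood at 22.2, 7.01, 7.32 and 4.91 CPM in shScramble without doxycycline and at 20.5, 12.3, 9.66 and 8.78 with it, replicate 1 being the highest in both. In shAKAP2 the levels were 4.28, 3.57, 3.61 and 3.90 CPM without doxycycline and at 1.65, 1.69, 1.92 and 2.16 with it. The shAKAP2 libraries lay below every shScramble library. The log2 fold change between the lines was -2.78 with doxycycline (SE 0.43, adjusted p = 9.53e-05) and -1.44 without it (SE 0.40, adjusted p = 0.0214). The latter lost its call without untreated shAKAP2 replicate 2 or 3 (adjusted p up to 0.0594) and was -0.74 (adjusted p = 0.0372) without untreated shScramble replicate 1. Although the shAKAP2 groups did not overlap, the log2 fold change with doxycycline of -1.05 (SE 0.44) had an adjusted p of 0.0869, and DESeq2 gave -1.05 with an adjusted p of 0.0458.

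ADAMTS15, the most abundant ADAMTS gene per length (RPKM) in untreated shScramble, stood at 94.4 ± 10.8 and 107 ± 10.7 CPM in shScramble and at 91.5 ± 6.82 and 76.8 ± 6.48 in shAKAP2, without and with doxycycline (SD, n = 4). Its log2 fold change in shAKAP2 was -0.25 (SE 0.09, adjusted p = 0.044), the difference from the shScramble effect -0.43 (SE 0.13, adjusted p = 0.0231), and the difference between the treated lines -0.48 (SE 0.09, adjusted p = 0.000286). The shAKAP2 call was lost without replicate 2 of either shScramble group, without untreated shAKAP2 replicate 1, 2 or 4, and without treated shAKAP2 replicate 2, 3 or 4 (adjusted p up to 0.16).

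ADAMTS6, which is linked to fibrillin microfibrils, stood at 4.00, 4.02, 5.77 and 5.71 CPM in shScramble without doxycycline and at 1.95, 4.25, 5.17 and 4.78 with it. The shAKAP2 values were 5.09, 7.18, 8.56 and 5.30 CPM without doxycycline and at 11.5, 11.5, 10.4 and 11.97 with it. The treated shAKAP2 libraries lay above all others. On the log2 scale ADAMTS6 changed by 0.80 in shAKAP2 (SE 0.22, adjusted p = 0.0105) and by -0.26 in shScramble (SE 0.23, adjusted p = 0.83), with a difference of 1.07 (SE 0.32, adjusted p = 0.0269). ADAMTS16 stood at 9.26 to 18.6 and 14.2 to 20.5 CPM in shScramble and at 10.1 to 11.6 and 7.504 to 9.84 in shAKAP2, without and with doxycycline, and was called lower between the treated lines (log2 -0.90, SE 0.17, adjusted p = 0.000342). Between the untreated lines it differed by -0.48 (SE 0.17, adjusted p = 0.0576), which passed the test in 5 of 23 alternatives. Neither its doxycycline effect in shAKAP2 (-0.34, SE 0.18, adjusted p = 0.159) nor the difference of effects (-0.42, SE 0.24, adjusted p = 0.26) was called. The shAKAP2 groups did not overlap, and that effect passed the test in 3 of 23 alternatives (adjusted p down to 0.0214). ADAMTS17 stood at 1.24 to 2.20 CPM on average and was not called with all libraries, but was called higher with doxycycline in shAKAP2 without treated replicate 4 (0.89, adjusted p = 0.0291).

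The ADAMTS-like genes, whose products bind the matrix and in several cases fibrillin microfibrils, went separate ways. ADAMTSL1 stood at 19.1, 19.3, 21.4 and 19.04 CPM in shScramble without doxycycline and at 20.6, 25.4, 22.6 and 25.3 with it, against 19.03, 18.1, 15.5 and 19.3 CPM in shAKAP2 without it and 30.5, 30.1, 27.2 and 28.8 with it. The treated shAKAP2 libraries lay above all others, and ADAMTSL1 changed by 0.70 on the log2 scale in shAKAP2 (SE 0.09, adjusted p = 9.01e-06) and by 0.25 in shScramble (SE 0.09, adjusted p = 0.30), with a difference of 0.44 (SE 0.13, adjusted p = 0.0229). ADAMTSL4 stood at 7.06, 5.24, 4.01 and 5.12 CPM in shScramble without doxycycline and at 10.1, 9.07, 7.28 and 10.4 with it, against 5.16, 3.11, 4.15 and 2.59 CPM in shAKAP2 without it and 2.26, 3.04, 3.53 and 3.51 with it. Here the shScramble libraries were the ones that did not overlap, with a log2 fold change of 0.78 (SE 0.21, adjusted p = 0.0986), against -0.27 in shAKAP2 (SE 0.22, adjusted p = 0.40) and a difference of -1.05 (SE 0.31, adjusted p = 0.0213).

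ADAMTSL2 stood under 1 CPM in every library, at 0.495 ± 0.104 and 0.647 ± 0.217 CPM in shScramble and 0.462 ± 0.329 and 0.151 ± 0.105 in shAKAP2, without and with doxycycline (SD, n = 4). Its shAKAP2 groups overlapped, and the log2 fold change of -1.57 (SE 0.57, adjusted p = 0.0446) lost its call in 12 of 23 alternatives. Among these were leaving out untreated shScramble replicate 2 or 3, treated shScramble replicate 2, untreated shAKAP2 replicate 3 or 4, and treated shAKAP2 replicate 1, 2 or 4. Without untreated shAKAP2 replicate 3 it was -0.97 (adjusted p = 0.23). ADAMTSL5 stood at 4.34 to 5.30 CPM on average and was not called by edgeR in any comparison with all libraries.

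**Figure D5:**
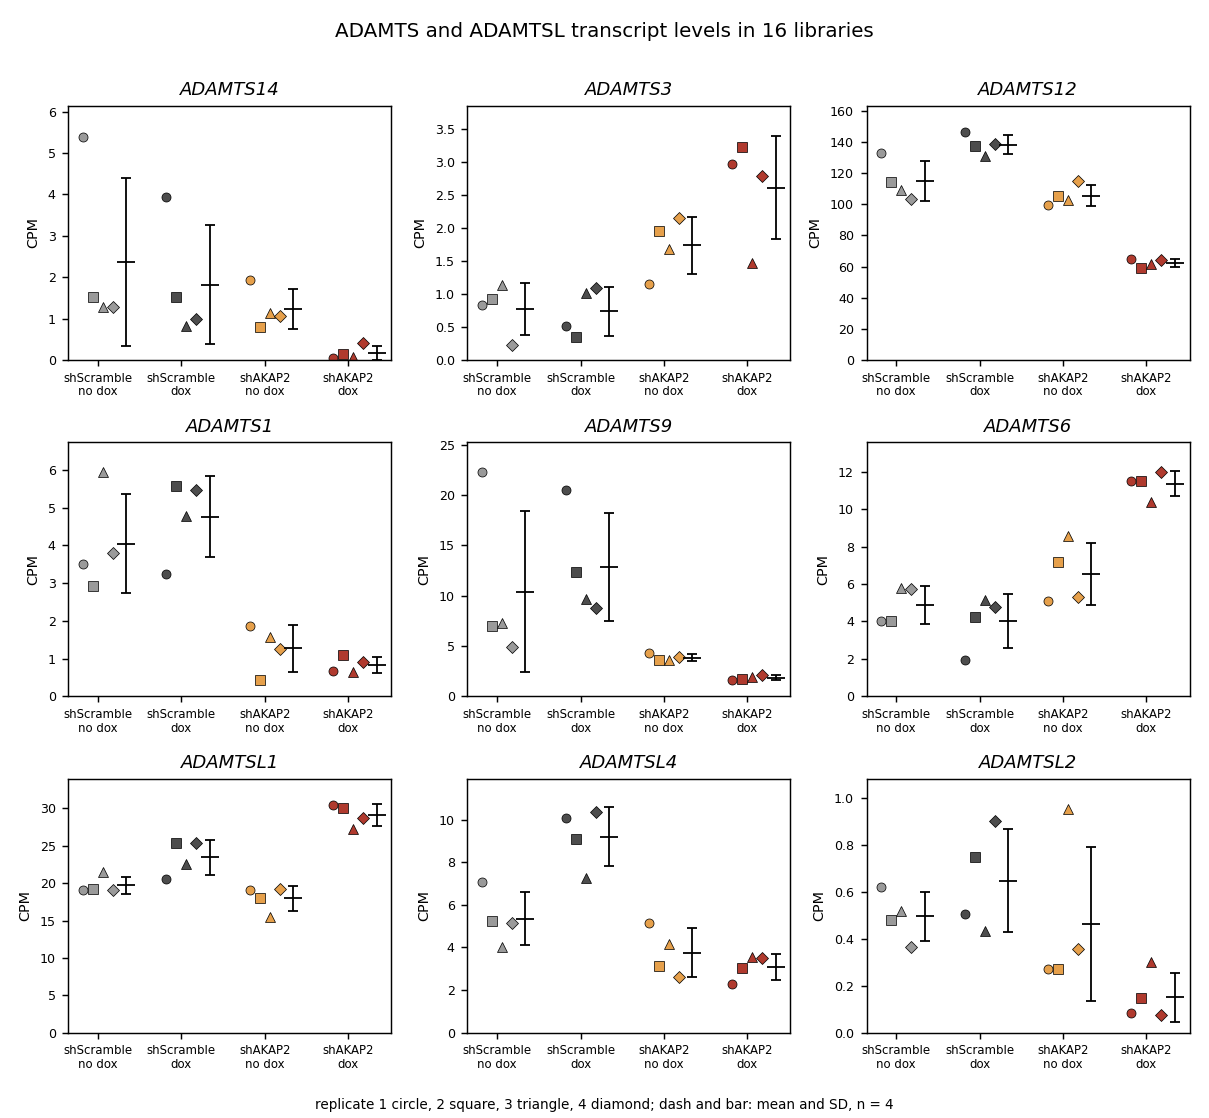
Levels of 6 ADAMTS and 3 ADAMTSL genes in CPM (vertical axes from 0) in the 16 libraries, by group; each symbol is 1 library, and the dash and bar are the mean and SD of 4. ADAMTS14 and ADAMTS12 are lowest, and ADAMTS6 and ADAMTSL1 highest, in the shAKAP2 libraries with doxycycline, while ADAMTS1 and ADAMTS9 are lower in all shAKAP2 libraries than in all shScramble libraries.

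Between the lines with doxycycline, 6 of 28 members were called higher in shAKAP2 (ADAM9, ADAM11, ADAM17, ADAMTS3, ADAMTS6, ADAMTSL1) and 15 lower, against 18.7% and 21.5% of all genes. The share called lower was 53.6% and the share called higher 21.4%, and the median log2 fold change of the members was -0.52, against -0.01 for all genes. The 15 were ADAM8, ADAM10, ADAM15, ADAM19, ADAMTS1, ADAMTS9, ADAMTS12, ADAMTS14, ADAMTS15, ADAMTS16, ADAMTSL2, ADAMTSL4, TIMP1, TIMP3 and TIMP4. Without doxycycline, 0 were called higher and 5 lower (ADAM8, ADAM28, ADAMTS1, ADAMTS9, TIMP3), against 8.65% and 9.31% of all genes. The unadjusted p was under 0.05 in this comparison for 10 of 28 members and for 5050 of all 15566 genes. DESeq2 called 1 member higher there and limma-voom called 0, with 1624 and 1421 of all genes called higher, against 1346 by edgeR. Without untreated shAKAP2 replicate 2 or 3, 3 were called lower, with 959 and 1052 of all genes called lower, against 1449 with all libraries. These comparisons share libraries with those above. A difference between lines that is present without doxycycline cannot be told apart from other differences between the lines.

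Of 14 tested genes that prepare ADAM proteases or carry them to the surface, 2 were called higher and 3 lower with doxycycline in shAKAP2 (14.3% and 21.4%, against 13.1% and 15.2% of all genes), with a median log2 fold change of -0.14. RHBDF1, a rhomboid-like protein that carries ADAM17 out of the endoplasmic reticulum, fell from 9.98 to 5.45 CPM on average (log2 -0.87, SE 0.16, adjusted p = 0.000299). TSPAN33, a tetraspanin that partners ADAM10, rose from 2.78 to 5.21 CPM (0.91, SE 0.21, adjusted p = 0.00217). PCSK7, a proprotein convertase, fell from 12.03 to 7.05 CPM (-0.77, SE 0.18, adjusted p = 0.00257). FURIN, another convertase, rose (0.24, SE 0.08, adjusted p = 0.0274), and TSPAN14, another tetraspanin, fell (-0.22, SE 0.07, adjusted p = 0.0289). In shScramble, 0 of the 14 were called (0.559% and 0.52% of all genes were). The difference of effects was called higher for TSPAN33 (1.06) and FURIN (0.34). It was called lower for RHBDF1 (-1.18) and TSPAN14 (-0.34), and not called for PCSK7. These were 14.3% in each direction, against 7.53% and 10.5% of all genes.

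Of 31 tested surface proteins known to be shed by ADAM proteases, 1 was called higher and 8 lower (3.23% and 25.8%, against 13.1% and 15.2% of all genes), with a median log2 fold change of -0.19. The EGF receptor ligand TGFA stood at 234, 242, 236 and 233 CPM in shAKAP2 without doxycycline and at 98.5, 93.0, 96.6 and 87.8 with it (log2 -1.33, SE 0.07, adjusted p = 1.04e-11). EREG, another such ligand, fell from 49.9 to 20.1 CPM on average (-1.31, SE 0.11, adjusted p = 1.84e-08), and the receptor gene MET from 272 to 149 CPM (-0.87, SE 0.08, adjusted p = 8.79e-08). In shScramble EREG also fell (-0.57, SE 0.11) and TNF rose (2.25, SE 0.47), 1 of 31 in each direction. These were 3.23% each, against 0.559% of all genes called higher and 0.52% lower in that line. The difference between the lines' effects was called higher for 1 of the 31 and lower for 5 (3.23% and 16.1%, against 7.53% and 10.5% of all genes). The 1 called higher was TNFRSF1B (0.52, SE 0.15). Among the 5 called lower were TGFA (-1.43, SE 0.10), EREG (-0.74, SE 0.15) and MET (-1.04, SE 0.12). Between the untreated lines, 10 of the 31 were called higher in shAKAP2 and 4 lower (32.3% and 12.9%, against 8.65% and 9.31% of all genes). EREG (0.54), MET (0.49) and TGFA (0.25) were among the 10. Between the treated lines, 4 were called higher and 8 lower (12.9% and 25.8%, against 18.7% and 21.5%). TGFA (-1.18) and MET (-0.55) were among the 8, whereas EREG was not called.

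Among 17 tested matrix substrates and partners of ADAMTS enzymes, 0 were called higher and 4 lower with doxycycline in shAKAP2 (23.5% lower, against 15.2% of all genes), with a median of -0.28. B3GLCT, a glucosyltransferase that modifies thrombospondin repeats, fell from 28.1 to 16.3 CPM on average (log2 -0.79, SE 0.10, adjusted p = 3.97e-06). COL3A1, a fibrillar procollagen, had 182 counts in shAKAP2 without doxycycline and 10 with it (-3.96, SE 0.72, adjusted p = 0.000299), and COL1A2, another, fell from 11.6 to 5.47 CPM (-1.09, SE 0.26, adjusted p = 0.00504). FBLN1, a fibulin, fell from 3.75 to 1.94 CPM (-0.94, SE 0.18, adjusted p = 0.000508). The difference of effects was called lower for 6 of the 17 and higher for 0 (35.3% and 0%, against 10.5% and 7.53% of all genes). Between the lines, the fibrillar procollagen gene COL1A1 was called higher in shAKAP2 without doxycycline (1.20, SE 0.26) and with it (0.94, SE 0.26). With doxycycline, 2 of the 17 were called higher there and 9 lower (11.8% and 52.9%, against 18.7% and 21.5%).

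Of 13 tested MMPs and other TIMP partners, 4 were called higher and 4 lower in shAKAP2 (30.8% each, against 13.1% and 15.2% of all genes), with a median of -0.26. The collagenase gene MMP1 stood at 16.01, 13.0, 18.4 and 10.1 CPM without doxycycline and at 1.15, 0.843, 1.32 and 0.549 with it (log2 -3.90, SE 0.39, adjusted p = 3.13e-06). MMP16, a membrane-type MMP, fell from 13.3 to 4.16 CPM on average (-1.68, SE 0.28, adjusted p = 0.000185). MMP14, which also works at the cell surface, rose from 390 to 545 CPM (0.48, SE 0.08, adjusted p = 0.000189). In shScramble, MMP9 (3.07, SE 0.51) and MMP3 (1.95, SE 0.43) were called higher, whereas MMP3 fell in shAKAP2 (-2.62, SE 0.46). These 2 were 15.4% of the 13, against 0.559% of all genes called higher in shScramble. The lines already differed without doxycycline. MMP9 (3.101), MMP3 (1.93) and MMP16 (0.897) were called higher in shAKAP2, and MMP1 (-1.93), MMP11 (-1.49) and MMP24 (-1.04) lower. These were 23.1% in each direction, against 8.65% and 9.31% of all genes. Between the treated lines, MMP14 was called higher and MMP1, MMP3, MMP2 and CD63 lower (7.69% and 30.8%, against 18.7% and 21.5%). MMP9 and MMP16 were not called there.

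Markers of other cell types moved in some of the same comparisons. For 14 blood cell genes the summed level was 82.3 to 103 and 132 to 183 CPM in shScramble without and with doxycycline, and 72.7 to 83.4 and 47.4 to 65.3 CPM in shAKAP2. LAPTM5 made up most of it, with means of 79.9, 144, 65.8 and 48.1 CPM in those groups. Of 11 tested, 5 were called higher with doxycycline in shScramble (0.559% of all genes were) and 2 lower in shAKAP2 (18.2%, against 15.2% of all genes). The difference of effects was called lower in 8 of the 11 (10.5% of all genes), and between the untreated lines 7 were called higher in shAKAP2 and 1 lower (8.65% and 9.31% of all genes). CD3E had 1 count in all, whereas CD53, PTPRC and TYROBP were present at low levels. For 9 fibroblast genes, COL1A1, COL1A2 and COL3A1 among them, the sum was 24.97 to 46.7 and 46.7 to 70.5 CPM in shScramble, and 21.7 to 33.6 and 19.6 to 21.8 CPM in shAKAP2. Of 7 tested, 3 were called lower with doxycycline in shAKAP2 (42.9%, against 15.2% of all genes). The difference of effects was called lower for 4 of the 7 (57.1%, against 10.5% of all genes). Between the untreated lines, 2 of the 7 were called higher in shAKAP2 and 1 lower (28.6% and 14.3%, against 8.65% and 9.31%). Between the treated lines, 1 of the 7, COL1A1, was called higher and 4 lower (14.3% and 57.1%, against 18.7% and 21.5%). Of the 11 blood cell genes, 0 were called higher there and 3 lower (27.3%). Their part in the results on the proteases and inhibitors was not tested. In bulk RNA, fewer cells of a type and less RNA per cell cannot be told apart.

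TIMP1, TIMP3 and TIMP4 lie within the synapsin genes SYN1, SYN3 and SYN2, on the opposite strand, in GENCODE release 29. TIMP1 is on chromosome X at 47582313 to 47586789, TIMP2 on chromosome 17 at 78852977 to 78925387, TIMP3 on chromosome 22 at 32801701 to 32863043 and TIMP4 on chromosome 3 at 12153051 to 12159351 (GRCh38). Exons overlap the host gene only for TIMP4, over 10.3% of its exonic bases. SYN1, SYN2 and SYN3 had mean levels of at most 0.361, 0.657 and 0.027 CPM in any group. Of the other members that changed, ADAMTSL4 overlaps genes on the other strand over 14.4% of its exonic bases, and these had at most 11 counts in a group. TIMP2 shares 10% of its exonic bases with AC022966.1 and CEP295NL (6.52% on the other strand), which had 0 and at most 16 counts in a group. ADAM15 shares 4.65% with DCST1 on the same strand, which had a mean of at most 0.560 CPM in any group. Whether counting used strand is not given in the sources used here.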

How the data were processed

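RNA from MDA-MB-231 cells was enriched with oligo(dT) beads, per the labels' protocols. STAR 2.5.2b, featureCounts, Subread 1.5.2 and build GRCh38 were used, per the submitters' processing notes. The authors deposited raw counts of reads per gene. Neither the annotation release nor the strand setting is given in these sources.

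Counts were tested with edgeR 4.0.16 (limma 3.58.1, R 4.3.3) by a robust quasi-likelihood test over all 16 libraries, after filterByExpr (15566 genes kept) and TMM scaling (factors 0.979 to 1.01). There were 12 residual degrees of freedom, a biological coefficient of variation of 14.4%, and Benjamini-Hochberg adjustment over all genes. Rows without a symbol held 0.014% of counts. Of 39 members, 28 passed the filter. The script was tested on simulated data. Exon lengths, UTRs and overlaps came from GENCODE release 29, which held 56898 identifiers.

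Alternatives were RLE scaling, DESeq2 1.42.0, limma-voom, a filter of 10 counts in all, the compared groups alone, a replicate block, and left-out libraries. All 39 members were accounted for. Full values were given for TIMPs and for members called in any comparison at 1 CPM or more in a group. From each partner list, up to 3 called genes of smallest p were named, with some further called genes. Overlapping genes were added from the annotation. Members, lists and the word were chosen with earlier results of these data known. No source says that replicates came from separate cultures, so p-values reflect only how far libraries of a group differ, which may be technical. Protein sequences were not analysed here. One sequence window and 1 marker gene's level are not reported here.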

Additional observations from a re-analysis of the deposited data

Results flagged for a closer look

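In 84 groups of 4 libraries (21 members in 4 groups), 12 had a library whose gap to its nearest neighbour took up nearly the whole range of the group; chance flags about 1 in 20 groups. Of the 12, 7 were a replicate 1 of shScramble. These were ADAM17 at 72.43 CPM without doxycycline (next library 52.01) and 79.9 with it (56.46), ADAM8 at 81.7 with it (59.93), ADAM9 at 429.3 with it (359.2), TIMP1 at 348.6 with it (298.6), ADAMTS14 at 5.396 without it (1.512) and ADAMTS9 at 22.25 without it (7.322). The other 5 were ADAM15 at 72.84 CPM in treated shAKAP2 replicate 4, ADAMTS15 at 67.21 in treated shAKAP2 replicate 3 (78.74), TIMP1 at 219 in treated shAKAP2 replicate 3 (204.3), TIMP3 at 316 in untreated shAKAP2 replicate 4 (267.1) and ADAMTSL1 at 21.45 in untreated shScramble replicate 3 (19.26).

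The effect of doxycycline differed between the lines, by the interaction term of edgeR's quasi-likelihood test at an adjusted p under 0.05, for 11 members. On the log2 scale, shAKAP2 minus shScramble, the differences were -1.58 for TIMP4, -1.29 for TIMP3, -1.05 for ADAMTSL4, -1.03 for ADAMTS12, -0.49 for ADAM10, -0.43 for ADAMTS15, -0.43 for TIMP1 and -0.27 for ADAM15. They were 0.44 for ADAMTSL1, 0.57 for ADAM17 and 1.07 for ADAMTS6.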

How the results depend on the processing

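In the shScramble line, members called higher with doxycycline went from 0 to 2 under DESeq2 and to 8 without both libraries numbered 1 (0 to 5 over libraries left out in turn), while all genes called higher went from 87 to 168 and 590. Between the untreated lines, members called higher went from 0 to 1 under DESeq2 and to 2 without both libraries numbered 1 (0 to 1), and those called lower from 5 to 3 with the compared groups alone (3 to 6). All genes called higher went from 1346 to 1624 and 2132 in these fits, and those called lower from 1449 to 1544. Over libraries left out in turn, members called with doxycycline in shAKAP2 ranged from 4 to 6 higher and 5 to 10 lower, and for the difference of effects from 1 to 4 higher and 5 to 10 lower. All genes called in these fits ranged from 1632 to 2465 higher and 1989 to 2705 lower in shAKAP2. For the difference of effects they ranged from 861 to 1664 higher and 1391 to 2026 lower. TIMP2 changed sign, uncalled, without both libraries numbered 1: -0.0223 for the difference of effects (-0.0029 to 0.15 over libraries left out) and 0.0721 between the untreated lines (-0.085 to 0.0688). RLE scaling gave the same member counts as TMM in all 5 comparisons. Same-numbered libraries did not deviate together in every pair (correlations -0.0178 to 0.053 in shAKAP2 and 0.0234 to 0.40 in shScramble), so the numbers were not taken to pair them. With the replicate block, members called higher and lower were 6 and 8 in shAKAP2, 0 and 0 in shScramble, 3 and 9 for the difference of effects, 6 and 14 between the treated lines and 0 and 5 between the untreated lines. In the same order, all genes called were 2097 and 2446, 93 and 80, 1192 and 1722, 2977 and 3352, and 1404 and 1465. Depth limits ADAMTS14, whose treated shAKAP2 libraries held 1 to 11 counts, and ADAMTSL2, under 1 CPM in every library.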

Other observations

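Of the 39 members, 11 did not pass the filter on low counts, each at a mean of at most 0.265 CPM in any group. Among the proteases were ADAMTS4 (20 counts in all 16 libraries), ADAMTS5 (13) and ADAMTS8 (29), which cut proteoglycans, the procollagen N-proteinase ADAMTS2 (70) and ADAMTS13 (57), which cuts von Willebrand factor. ADAM21 had 77 counts, ADAM32 40, ADAM23 36, ADAM20 20 and ADAM18 10, and ADAMTSL3 had 13. With a filter of 10 counts in all, edgeR tested these 11 in the 5 comparisons and called 2. ADAM23 was lower in shAKAP2 between the treated lines (adjusted p = 0.0331), with 10, 1, 2 and 0 counts in the shScramble libraries and 0 in each shAKAP2 library. ADAM32 was called for the difference of effects (adjusted p = 0.0373), with 1, 4, 16 and 1 counts in shScramble without doxycycline and 1, 0, 0 and 0 with it, and 0, 1, 1 and 0 in shAKAP2 without it and 7, 0, 0 and 8 with it, so that the call rests on few libraries. These low numbers do not show that the genes are silent. Below the minimum of 10 counts were ADAMTS20 (8), ADAM33 (8), ADAM29 (6) and ADAM5 (1). No read was counted for ADAM2, ADAM6, ADAM7, ADAM30, ADAMTS10, ADAMTS18 or ADAMTS19, 7 of the 50 genes.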
